A study of Mus musculus with 12 samples.

Results

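The salivary gland epithelium is built and kept by transcription factors that set which cells become acinar, ductal or mucous and how much they secrete. The genes described here are 10 such factors, listed for their known roles in gland epithelium, with no threshold on these data but with earlier results of them known: *Bhlha15*, *Creb3l1*, *Spdef*, *Sox9*, *Sox10*, *Foxc1*, *Elf5*, *Ehf*, *Tfcp2l1* and *Pax9*. All 10 were found in the table of 56065 genes, and all 10 were among the 17893 genes that had enough counts to be tested. Their levels were read in bulk RNA-sequencing of the submandibular gland (SMG) of mice aged 8 weeks, with 1 library per mouse and 3 mice in each of 4 groups. These were wild-type C57BL/6J females and males, and females and males of the line C57BL/6J-*Pou2f3*-/-, called knockout here, on the same C57BL/6J background. The line lacks POU2F3, the transcription factor that tuft cells (TCs), rare chemosensory cells of the ducts, depend on, and the loss is germline, so that every tissue lacks it from the start of development. A whole gland was sequenced, so that acinar, ductal, myoepithelial and stromal cells were read together, and fewer cells of a type cannot be told apart from less RNA per cell.

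As background, the mouse SMG is one of the most sexually dimorphic organs outside the reproductive tract. In the male, androgens turn part of the striated ducts into granular convoluted tubules, which fill with growth factors and kallikreins, whereas the female gland keeps a larger share of acinar and intercalated duct cells. BHLHA15 (MIST1) and CREB3L1 scale up the secretory machinery of acinar and other secretory cells, SPDEF drives mucous and goblet cell differentiation, and SOX9 and SOX10 mark the progenitor, acinar and intercalated duct compartments of developing glands. FOXC1 acts in gland development, ELF5 and EHF are ETS factors of glandular and surface epithelia, TFCP2L1 acts in ducts of the salivary gland and kidney, and PAX9 patterns oral epithelium. The genotype comparison within each sex asks what the lack of POU2F3, and with it of TCs, leaves different in the gland, and the sex comparison within each genotype asks how far female and male glands differ.

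Total estimated counts ran from 47032175 to 67882207 per library, and the 10 genes had between 507 counts (*Spdef*) and 146791 counts (*Tfcp2l1*) in a library. Levels are given as CPM, a gene's count relative to the TMM-scaled total of its library, and a gene is called different when the adjusted p of edgeR's quasi-likelihood test is under 0.05. *Xist* and *Ddx3y* fitted the labelled sex in all 12 libraries. *Pou2f3* itself had at most 10 counts in any library of either genotype, so that it could not check the genotype labels. Of the 12 libraries, 3 stood apart by products known from the sublingual and parotid glands. *Muc19*, the large mucin of the sublingual gland, stood at 4901 CPM in the third knockout female and 7391 CPM in the third wild-type male, against 1.80 to 174 CPM in the other 10. *Bpifa2*, a parotid and sublingual saliva protein, stood at 2031 CPM in the second knockout male, where *Amy1* (919 CPM) and *Smr3a* (841 CPM) were also highest. Results of the 10 factors are given with and without these libraries where that changes a call.

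The sequence just upstream of the start site is shown for 4 of the factors, chosen because they span the range of sex differences described below: *Spdef* (the strongest fall in males), *Bhlha15* (a fall), *Tfcp2l1* (the strongest rise) and *Pax9* (no call). They come from RefSeq on GRCm38.p6 and run 5′ to 3′ on the gene's strand, from 250 to 51 bases before the start. RefSeq windows were found for 6 of the 10 genes. Capitals mark the letters AGAACA or their reverse complement TGTTCT, a hexamer that forms one arm of the androgen receptor's motif. The positions are chr17:27729002-27729201 on the minus strand for *Spdef*, and, on the plus strand, chr5:144190036-144190235 for *Bhlha15*, chr1:118627695-118627894 for *Tfcp2l1* and chr12:56695221-56695420 for *Pax9*.
Spdef: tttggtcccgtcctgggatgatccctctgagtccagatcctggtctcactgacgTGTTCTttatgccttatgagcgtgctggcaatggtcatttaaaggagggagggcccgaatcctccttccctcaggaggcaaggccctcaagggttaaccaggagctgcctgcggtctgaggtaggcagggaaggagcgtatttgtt
Bhlha15: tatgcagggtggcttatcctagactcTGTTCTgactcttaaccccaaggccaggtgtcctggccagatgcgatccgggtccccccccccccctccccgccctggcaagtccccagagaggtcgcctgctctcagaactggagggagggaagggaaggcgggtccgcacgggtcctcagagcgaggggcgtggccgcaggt
Tfcp2l1: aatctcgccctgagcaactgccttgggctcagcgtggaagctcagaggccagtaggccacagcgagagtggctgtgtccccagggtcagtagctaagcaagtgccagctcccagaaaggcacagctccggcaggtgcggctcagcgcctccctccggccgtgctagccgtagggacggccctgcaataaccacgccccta
Pax9: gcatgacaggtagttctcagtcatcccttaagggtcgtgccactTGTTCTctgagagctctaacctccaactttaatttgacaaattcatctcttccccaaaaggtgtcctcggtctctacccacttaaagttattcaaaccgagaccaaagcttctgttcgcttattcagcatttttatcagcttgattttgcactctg
The hexamer stood at 196 to 191 bases before the start in *Spdef*, at 224 to 219 in *Bhlha15* and at 206 to 201 in *Pax9*, and no match was found in this window of *Tfcp2l1*, *Foxc1* or *Elf5*. Of 32817 windows of the same 200 bases over all genes, 13.2% held it on either strand. On both strands too, CAGCTG, an E-box of the kind that bHLH factors such as BHLHA15 bind, was found in 1 of 2 windows of *Elf5* and in 10.3% of all windows. AGGAAG (ETS, 23.9% of all windows), ACAAAG (SOX, 13.6%) and GTAAACA (forkhead, 2.57%) were found in no window of the 6 genes. A match is a stretch of letters and not a shown site, and *Pax9*, which held the hexamer, showed no sex difference that passed the test.

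More of these factors differed between the sexes than between genotypes. In wild-type glands, 9 of the 10 were called different between males and females: *Spdef*, *Creb3l1*, *Elf5*, *Bhlha15*, *Sox9*, *Sox10* and *Foxc1* were lower in males, *Tfcp2l1* and *Ehf* were higher, and *Pax9* did not pass. Over all genes tested, 36.5% were called in this comparison, and 16% were called lower in males. The ranges of the 3 mice of each sex did not overlap for any of the 10 genes, against 47.6% of all genes. The same 9 genes were called, in the same directions, between knockout males and knockout females, a comparison that shares no library with the first. There, 43.5% of all genes were called, 20.3% were called lower in males, and the ranges did not overlap for 9 of the 10 factors against 54.8% of all genes. The median log2 fold change of the 10, male against female, was −0.95 in both genotypes, beside a median over all genes of 0.064 in wild types and −0.020 in knockouts. The plot of each factor by mouse shows these separations.

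**Figure D1:**
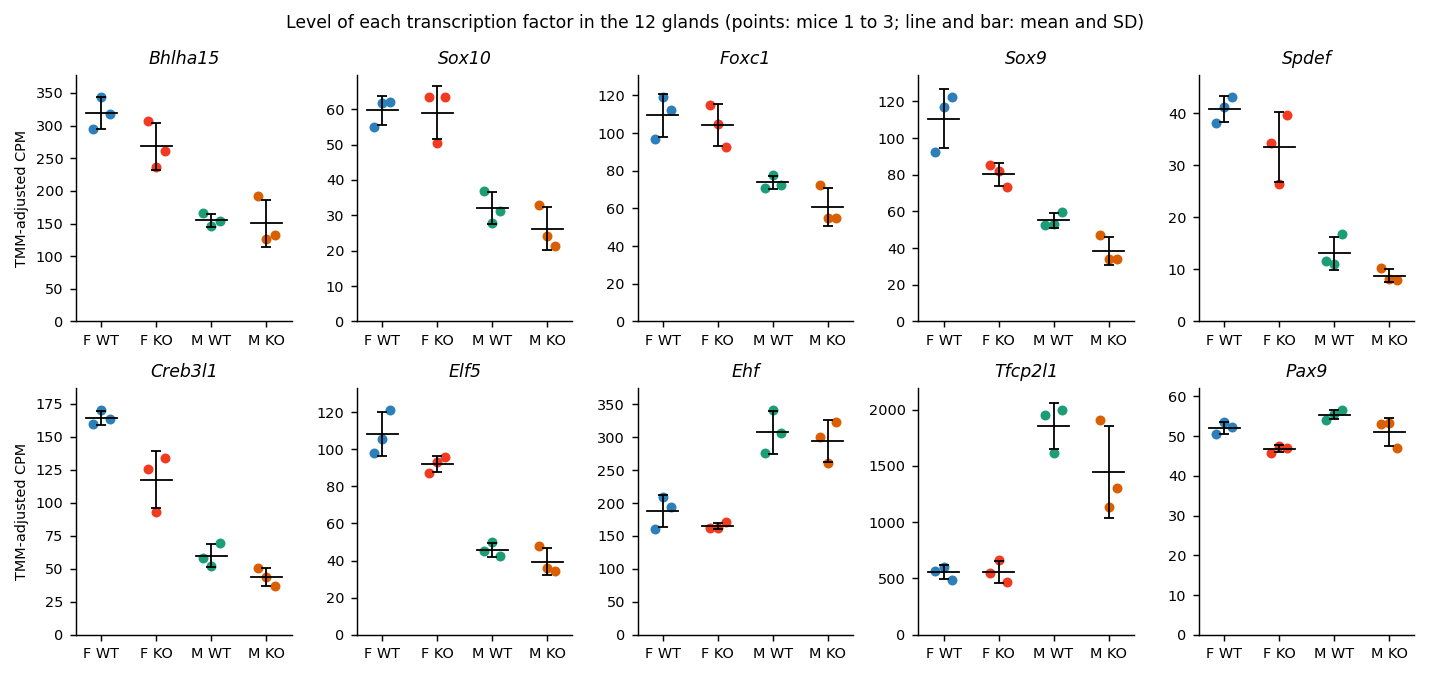
TMM-adjusted CPM (y axis, from 0) of each of the 10 factors in female (F) and male (M) wild-type (WT) and knockout (KO) glands; each point is a mouse, the line is the mean of 3 and the bar the SD. Spdef, Creb3l1, Elf5, Bhlha15, Sox9, Sox10 and Foxc1 lie lower in males, Tfcp2l1 and Ehf lie higher, and Pax9 stays between 45.8 and 56.5 CPM in all 12 mice.

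Of the factors lower in males, those of secretory cells are given first. *Bhlha15* (chr5:144127086-144131259 on GRCm39, plus strand), the acinar factor that organises granule maturation and the endoplasmic reticulum, stood at 295, 344 and 318 CPM in the 3 wild-type females and at 307, 236 and 262 CPM in the 3 knockout females. In males it stood at 165, 146 and 153 CPM in wild types and 192, 127 and 133 CPM in knockouts. Every male lay below every female, the nearest pair being a knockout male at 192 CPM and a knockout female at 236 CPM. The log2 fold change, male against female, was −1.04 (SE 0.16, adjusted p = 0.000293) in wild types and −0.83 (SE 0.16, adjusted p = 0.00125) in knockouts.

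*Creb3l1* (chr2:91812673-91854917, minus strand) encodes a membrane-bound factor of the endoplasmic reticulum that is cut free to switch on genes of secretory transport. Its levels were 159.6, 170.0 and 164 CPM in wild-type females, 126, 93.02 and 134 CPM in knockout females, 58.02, 52.3 and 69.7 CPM in wild-type males and 50.8, 43.5 and 36.7 CPM in knockout males. It was thus ordered by sex and, within each sex, by genotype, with no overlap between any of the 4 groups. The sex difference was −1.45 (SE 0.16, adjusted p = 1.65e-05) in wild types, or 2.74-fold between group means, and −1.43 (SE 0.16, adjusted p = 2e-05) in knockouts.

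*Spdef* (chr17:27933326-27947929, minus strand), the ETS factor of mucous and goblet cells, had the widest fall of the 10. It stood at 38.2, 41.2 and 43.1 CPM in wild-type females, 34.4, 26.4 and 39.7 CPM in knockout females, 11.7, 10.95 and 16.7 CPM in wild-type males and 10.2, 8.24 and 7.96 CPM in knockout males. All 6 females lay at 26.4 CPM or above and all 6 males at 16.7 CPM or below. The log2 fold change, male against female, was −1.64 (SE 0.18, adjusted p = 1.39e-05) in wild types and −1.93 (SE 0.18, adjusted p = 4.36e-06) in knockouts, or 3.11-fold and 3.80-fold between group means.

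In 3 of the 4 groups *Spdef* was highest in the library with the most *Muc19*. Its highest values in the knockout females (39.7 CPM) and in the wild-type males (16.7 CPM) were those of the 2 libraries with 4901 and 7391 CPM of *Muc19*, and *Creb3l1* was highest within its group in the same 2 libraries. The highest knockout male for *Spdef* (10.2 CPM) and for *Creb3l1* (50.8 CPM) was the one with 103 CPM of *Muc19*. In wild-type females *Spdef* was not highest in the library with the most *Muc19* (41.2 CPM at 174 CPM of *Muc19*) but in another (43.1 CPM). *Creb3l1* was highest in the former (170.0 CPM), and so in the library with the most *Muc19* of each of the 4 groups. In the order given, these 4 libraries were the highest of their group for 5, 5, 8 and 6 of the 10 factors. This is thus not particular to *Spdef* or *Creb3l1*. Of the 9 genes listed as mucous cell products, 2 were at 0 in every library, and their summed level ran from 23.6 to 187 CPM in wild-type females, 16.7 to 4914 in knockout females, 14.5 to 7409 in wild-type males and 8.30 to 115 in knockout males. With those 2 libraries left out, *Spdef* was still called lower in males, with log2 fold changes of −1.85 in wild types (adjusted p = 1.11e-05) and −1.78 in knockouts (adjusted p = 1.65e-05). The part of *Muc19*-rich tissue in the level of *Spdef* within a group was not tested.

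**Figure D2:**
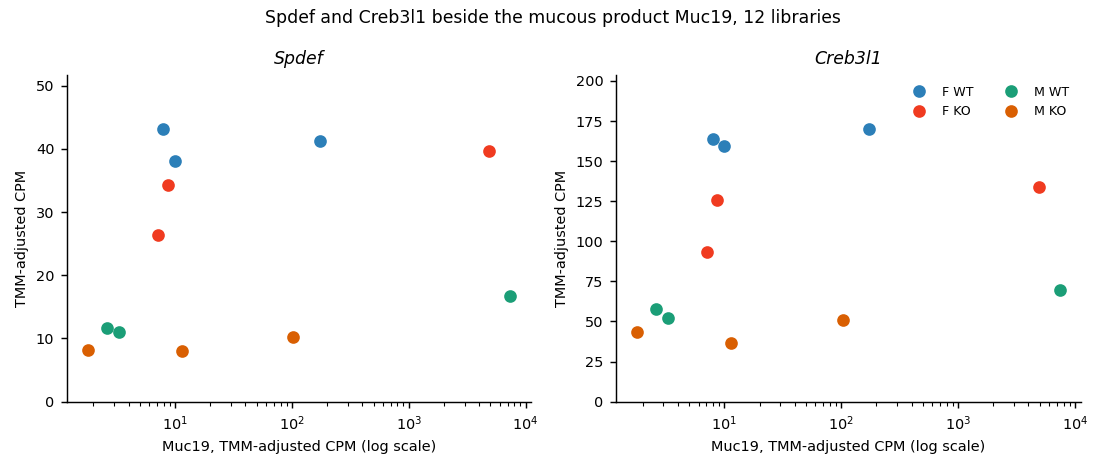
TMM-adjusted CPM of Spdef (left) and Creb3l1 (right) on the y axis, from 0, against that of the mucin gene Muc19 on a log x axis, 1 point per library, coloured by group. The 2 libraries at 4901 and 7391 CPM of Muc19 are the highest of their groups for both factors, and all males lie below all females. These 2 libraries are 1 knockout female and 1 wild-type male, so that at high Muc19 sex cannot be told apart from genotype.

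The SOX factors were lower in males by about the same amount as *Bhlha15*. *Sox9* (chr11:112673009-112678586, plus strand), a factor of distal progenitors and ducts, stood at 92.6, 117 and 122 CPM in wild-type females and 85.1, 82.2 and 73.3 CPM in knockout females. In males it stood at 52.9, 52.99 and 59.96 CPM in wild types and 47.1, 33.8 and 33.9 CPM in knockouts. The 4 groups did not overlap, since the lowest mouse of each lay above the highest of the next. Male against female, the log2 fold change was −1.002 (SE 0.15, adjusted p = 0.000163) in wild types and −1.07 (SE 0.15, adjusted p = 9.15e-05) in knockouts.

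*Sox10* (chr15:79039108-79049469, minus strand), which marks acinar and intercalated duct cells in the gland and Schwann cells in its nerves, was level between genotypes in females. It stood at 55.03, 61.8 and 62.1 CPM in wild-type females, 63.4, 50.3 and 63.5 CPM in knockout females, 36.9, 27.9 and 31.3 CPM in wild-type males and 33.00, 24.2 and 21.4 CPM in knockout males. No male reached the lowest female. The sex difference was −0.90 (SE 0.16, adjusted p = 0.000693) in wild types and −1.17 (SE 0.16, adjusted p = 8.16e-05) in knockouts. Of 12 listed markers of Schwann cells, whose nerve sheaths also express *Sox10*, all were present in the table and 10 were tested. Their summed level ran from 125 to 156 CPM in wild-type females, 127 to 149.9 in knockout females, 143 to 171 in wild-type males and 139 to 165 in knockout males. The summed Schwann markers were thus no lower in males, in whom *Sox10* was lower.

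*Foxc1* (chr13:31990616-31996459, plus strand), a forkhead factor of gland and mesenchyme development, had the narrowest of the 7 falls. Its levels were 96.8, 119 and 112 CPM in wild-type females, 115, 105 and 92.8 CPM in knockout females, 71.1, 77.9 and 72.6 CPM in wild-type males and 72.6, 55.2 and 55.04 CPM in knockout males. The highest male lay at 77.9 CPM and the lowest female at 92.8 CPM. The sex difference was −0.57 (SE 0.13, adjusted p = 0.00468) in wild types and −0.77 (SE 0.13, adjusted p = 0.000485) in knockouts. Fibroblast markers, 12 of 12 tested, summed to 365 to 519 CPM in wild-type females, 389.6 to 582 in knockout females, 521 to 582 in wild-type males and 628 to 1009.7 in knockout males. By edgeR 2 of the 12 were called higher in wild-type males (*Postn* 2.21 and *Col1a1* 0.53) and 3 lower (among them *Dpt* −1.68 and *Thy1* −1.83). These genes were named after their values were seen. In knockout males 7 were called higher and 1 lower. Of all genes, 36.5% were called in wild types and 43.5% in knockouts. Library totals made the counts 7 higher and 2 lower in wild types, and 9 higher and 0 lower in knockouts. Without the 2 libraries rich in *Muc19* the count in knockouts was 5 higher and 1 lower. Without these and the library rich in *Bpifa2* it was 1 higher and 1 lower. The median log2 fold change was then 0.46, against 0.76 with all libraries. The part of stromal cells in the level of *Foxc1* was not tested.

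*Elf5* and *Ehf* are ETS factors that lie next to each other on chromosome 2 and read away from each other, with 108409 bases and no protein-coding gene between them. *Elf5* (chr2:103242033-103281334, plus strand), known from the secretory alveoli of the mammary gland, stood at 97.8, 106 and 121 CPM in wild-type females, 87.4, 93.00 and 95.9 CPM in knockout females, 45.1, 49.8 and 42.3 CPM in wild-type males and 47.7, 36.1 and 34.4 CPM in knockout males. The highest male lay at 49.8 CPM and the lowest female at 87.4 CPM. Male against female, the log2 fold change was −1.24 (SE 0.13, adjusted p = 1.21e-05) in wild types and −1.23 (SE 0.13, adjusted p = 1.46e-05) in knockouts.

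Its neighbour *Ehf* (chr2:103093778-103133623, minus strand), a factor of ductal and surface epithelia, went the other way. It stood at 161, 209 and 193 CPM in wild-type females, 163, 162 and 171 CPM in knockout females, 276, 341 and 306 CPM in wild-type males and 300.4, 260.3 and 324 CPM in knockout males. Every male lay above every female, the highest female being at 209 CPM and the lowest male at 260.3 CPM. The sex difference was 0.71 (SE 0.13, adjusted p = 0.00122) in wild types and 0.84 (SE 0.13, adjusted p = 0.000322) in knockouts.

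*Tfcp2l1* (chr1:118555636-118612915, plus strand), a grainyhead-like factor of duct cells, was the most highly counted of the 10 and the one that rose most in males. Its levels were 570.0, 606 and 486 CPM in wild-type females and 548, 664 and 470.5 CPM in knockout females. In males they were 1952, 1616 and 1994 CPM in wild types and 1911, 1133 and 1305 CPM in knockouts. The knockout males spread most, from 1133 to 1911 CPM, but their lowest was still above the highest female at 664 CPM. Male against female, the log2 fold change was 1.74 (SE 0.21, adjusted p = 3.31e-05) in wild types, or 3.35-fold between group means, and 1.37 (SE 0.21, adjusted p = 0.000194), or 2.58-fold, in knockouts.

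*Pax9* (chr12:56738552-56759607, plus strand), a paired-box factor of oral and pharyngeal epithelium, was the steadiest. It stood at 50.5, 53.5 and 52.2 CPM in wild-type females, 45.8, 47.4 and 47.1 CPM in knockout females, 54.1, 55.6 and 56.5 CPM in wild-type males and 52.9, 53.3 and 47.03 CPM in knockout males. The wild-type males all lay above the wild-type females, the highest female being at 53.5 CPM and the lowest male at 54.1 CPM, whereas knockout males and females overlapped. Neither sex difference passed, at 0.089 (SE 0.079, adjusted p = 0.397) in wild types and 0.13 (SE 0.079, adjusted p = 0.212) in knockouts.

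**Figure D3:**
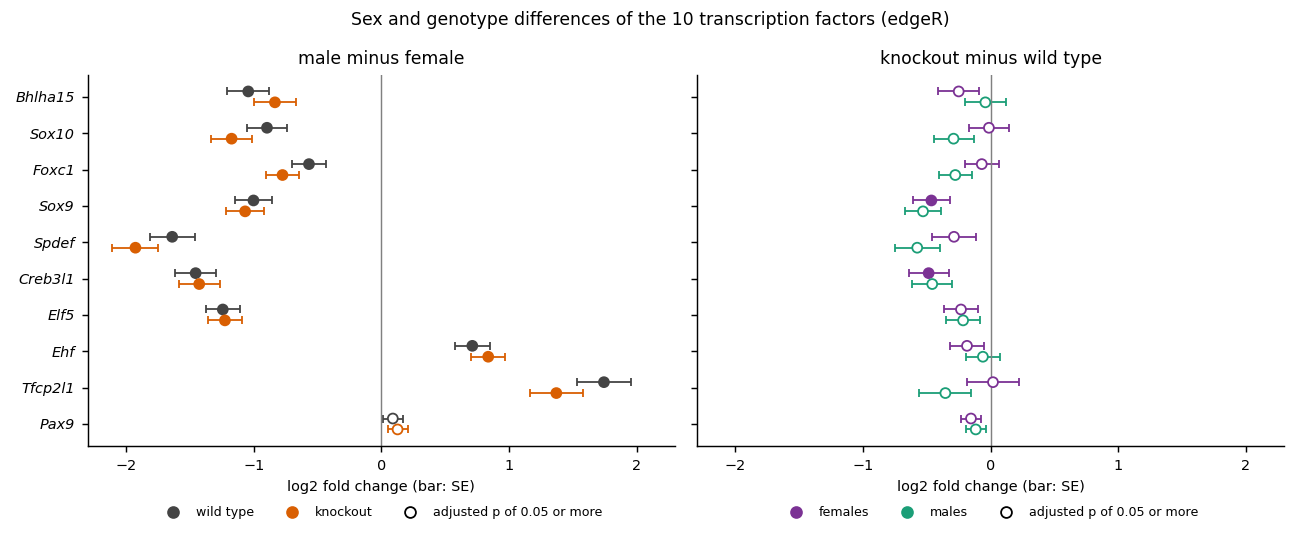
Log2 fold changes (x axis) of the 10 factors with their SE as bars, from edgeR: male against female in wild types and knockouts (left) and knockout against wild type in females and males (right). Filled points passed an adjusted p of 0.05: 9 of 10 in each sex comparison, 2 of 10 (Sox9 and Creb3l1) for genotype in females and 0 of 10 for genotype in males.

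The scaling of the libraries bears on these values. The 20 most abundant genes took 72.7% to 80.0% of the counts in females and 53.2% to 62.9% in males. With library totals alone as the scale, the median log2 fold change of all genes, male against female, was 0.95 in wild types and 0.25 in knockouts, and 5 of the 10 factors were called in wild types. In that setting *Sox10* (0.027) and *Foxc1* (0.33) changed sign in wild types, *Bhlha15*, *Sox9* and *Elf5* no longer passed, and *Pax9* did (0.99, adjusted p = 5.17e-05), so that 4 of the 9 stayed called. Relative to the median of all genes, the differences in wild types were −1.09 for *Bhlha15*, −1.04 for *Sox9*, −0.93 for *Sox10*, −0.63 for *Foxc1* and −1.30 for *Elf5*. These are near the values given above by construction, since the scalings differ by an almost constant shift of all genes, and are no check of them. In knockouts, library totals also gave 9 calls, but *Bhlha15* no longer passed (−0.56, adjusted p = 0.0628) and *Pax9* did (0.40, adjusted p = 0.0359). Under the other scalings, the other test and filters and each library left out in turn, 9 factors or, with the authors' own factors in knockouts, all 10 were called.

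Ratios of 2 factors within a library do not depend on scaling at all. The pairs were chosen after their values were seen and are given as a description. The ratio of *Tfcp2l1* to *Bhlha15* counts ran from 1.53 to 1.93 in wild-type females and 1.79 to 2.81 in knockout females, and from 11.1 to 13.01 in wild-type males and 8.95 to 9.98 in knockout males. The ratio of *Ehf* to *Elf5* ran from 1.60 to 1.98 and from 1.74 to 1.86 in the same groups of females, and from 6.11 to 7.23 and from 6.30 to 9.40 in the males. Neither ratio overlapped between the sexes. By contrast, the ratio of *Sox9* to *Sox10* ran from 1.68 to 1.97 in wild-type and 1.15 to 1.63 in knockout females, and from 1.43 to 1.92 in wild-type and 1.40 to 1.58 in knockout males, so that males and females overlapped.

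**Figure D4:**
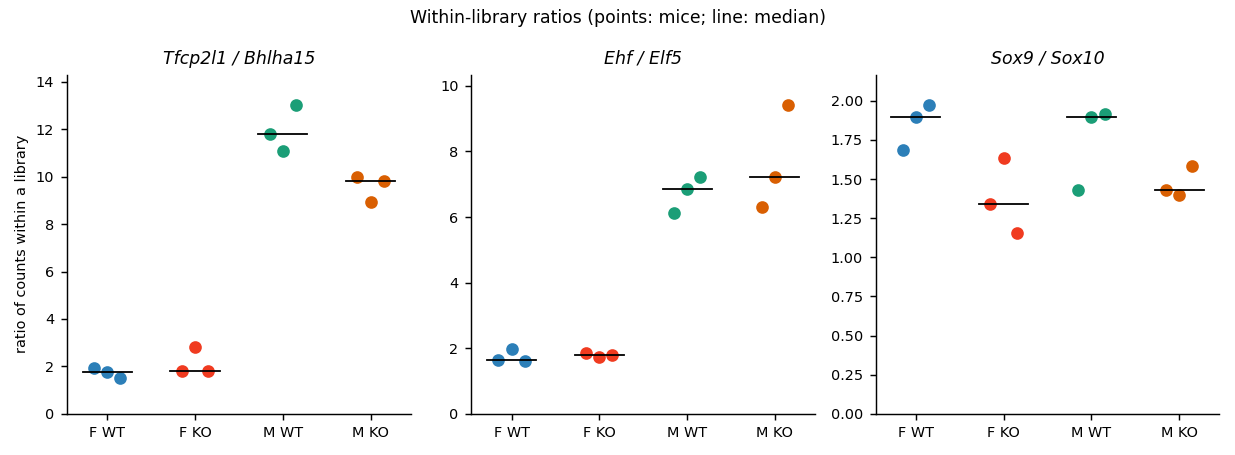
Ratio of estimated counts of 2 factors within each library (y axis, from 0), 1 point per mouse with the group median as a line. Tfcp2l1 to Bhlha15 lies at 2.81 or below in females and at 8.95 or above in males, Ehf to Elf5 at 1.98 or below and at 6.11 or above, and Sox9 to Sox10 overlaps between the sexes.

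Dividing by the exon length of each gene puts the 10 on a common scale of CPM per kilobase (kb). In wild-type females *Bhlha15* led at 90.8 ± 6.90 CPM per kb (mean ± SD, n = 3), followed by *Creb3l1* at 60.7 ± 1.93 and *Tfcp2l1* at 58.3 ± 6.51, which overlapped each other. *Ehf* (33.4 ± 4.40) and *Sox9* (26.5 ± 3.80) overlapped next, then *Foxc1*, *Elf5*, *Sox10* and *Spdef* lay together between 17.7 and 18.7, and *Pax9* was lowest at 10.3 ± 0.297. In knockout females the order was the same but for *Tfcp2l1* (59.1 ± 10.3) above *Creb3l1* (43.4 ± 7.96), which did not overlap, and *Sox10* above *Elf5*, which did. The male order differed at both ends. In wild-type males *Tfcp2l1* led at 195 ± 21.8 CPM per kb, followed by *Ehf* at 54.7 ± 5.79 and *Bhlha15* at 44.1 ± 2.82, none of which overlapped, and *Spdef* was lowest at 5.69 ± 1.37. In knockout males *Tfcp2l1* (153 ± 43.01) led again, *Ehf* (52.5 ± 5.69) and *Bhlha15* (42.8 ± 10.2) overlapped, and *Spdef* was last at 3.82 ± 0.533. *Pax9*, with means of 9.25 to 10.96 CPM per kb in the 4 groups, moved from the last place in females to the seventh in wild-type and the sixth in knockout males.

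**Figure D5:**
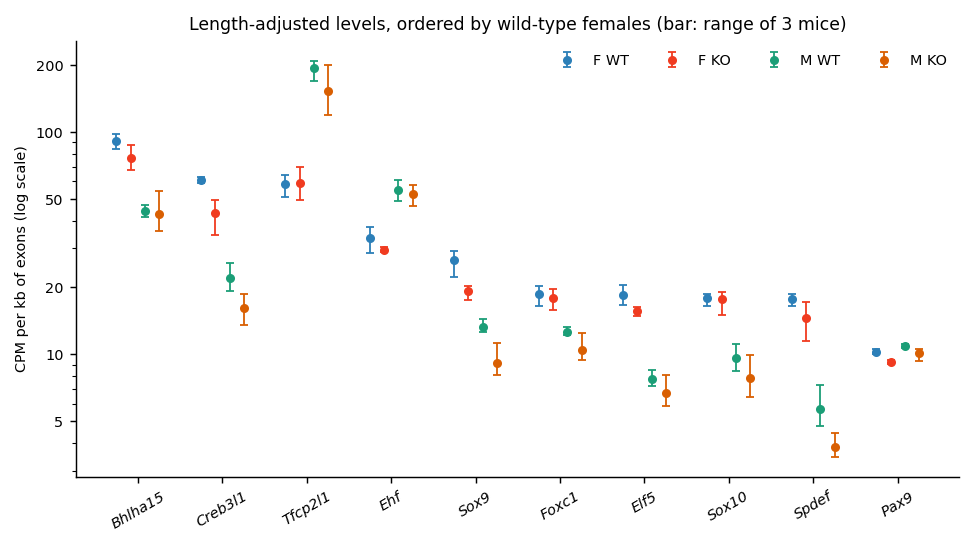
Length-adjusted level of each factor, in CPM per kb of exons on a log axis, ordered by wild-type females; points are means and bars the range of 3 mice in female (F) and male (M) wild-type (WT) and knockout (KO) glands. Bhlha15 is highest in females and Tfcp2l1 in males, and Spdef is lowest in males.

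Against these sex differences, the differences between genotypes were small. In females, *Sox9* and *Creb3l1* were called lower in knockouts and none of the 10 was called higher, while 36.9% of all genes were called and 19.3% called lower. *Sox9* fell by 27.5% of its mean, from 111 ± 15.9 to 80.2 ± 6.16 CPM (mean ± SD, n = 3 and 3; log2 fold change −0.46, SE 0.14, adjusted p = 0.0234). *Creb3l1* fell by 28.6%, from 164 ± 5.23 to 117 ± 21.5 CPM (log2 fold change −0.49, SE 0.16, adjusted p = 0.0286). For these 2 genes and for *Elf5* and *Pax9* the ranges of the 3 mice did not overlap, that is for 4 of 10 against 49.3% of all genes. The share of the 10 called was thus below that of all genes. Summed macrophage markers overlapped between knockout and wild-type females (101 to 161 against 120 to 329 CPM), as did adipocyte markers (31.8 to 35.7 against 15.5 to 114 CPM). The markers called lower by edgeR included *C1qa* and *Cx3cr1* of macrophages and *Cfd* and *Cidea* of adipocytes. Leaving out single libraries lost these calls in 4, 3, 3 and 4 of 6 fits. *Lipe* of adipocytes was called higher. The part of these cells was not tested.

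The calls of *Sox9* and *Creb3l1* were near the threshold. With the 2 libraries rich in *Muc19* left out, *Creb3l1* was still called (log2 fold change −0.59, adjusted p = 0.0258) and *Sox9* was not (−0.41, adjusted p = 0.102). Leaving out 1 library at a time gave between 1 and 4 called factors. *Sox9* alone was called without knockout replicate 2 or wild-type replicate 2, *Creb3l1* alone without knockout replicate 3 or wild-type replicate 3, and *Elf5* and *Pax9* were called as well without wild-type replicate 1. That mouse was the lowest of its group for 9 of the 10 factors. With the authors' factors *Pax9* was called as well (−0.26, adjusted p = 0.0412). With library totals both genes changed sign and neither passed (*Sox9* 0.051, adjusted p = 0.842; *Creb3l1* 0.029, adjusted p = 0.931). With upper-quartile scaling, under which the median of all genes rose to 0.13, neither gene passed (adjusted p = 0.0528 and 0.0720).

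The other 8 factors in females did not pass. The values were −0.25 (SE 0.16, adjusted p = 0.244) for *Bhlha15*, −0.29 (SE 0.17, adjusted p = 0.211) for *Spdef* and −0.23 (SE 0.13, adjusted p = 0.18) for *Elf5*. *Ehf* (−0.19) and *Pax9* (−0.15) had adjusted p-values of 0.302 and 0.143. For *Foxc1* (−0.07), *Sox10* (−0.014) and *Tfcp2l1* (0.018) the SE was 0.13, 0.16 and 0.20, so that the estimates lay within 1 SE of 0.

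In males none of the 10 was called between genotypes by edgeR, and 0.235% of all genes were. All 10 estimates were below 0, with a median of −0.28 beside −0.042 over all genes, and 3 had an unadjusted p under 0.05, against 11.5% of all genes. These were *Spdef* (13.1 ± 3.16 to 8.80 ± 1.23 CPM, log2 fold change −0.58, SE 0.18, adjusted p = 0.212), *Sox9* (55.3 ± 4.06 to 38.3 ± 7.66 CPM, −0.53, SE 0.14, adjusted p = 0.17) and *Creb3l1* (−0.46, SE 0.16, adjusted p = 0.266). The ranges did not overlap for 4 of the 10 factors, these 3 and *Pax9*, against 14.5% of all genes. DESeq2 called 1 of the 10, *Sox9* (−0.51, adjusted p = 0.0356), edgeR without the filter on low counts called 1, *Spdef* (−0.57, adjusted p = 0.0461), and edgeR without knockout replicate 1 called 1, *Sox9* (−0.70, adjusted p = 0.0181). That knockout male was the highest of its group for 8 of the 10 factors. The remaining values were −0.36 for *Tfcp2l1*, −0.29 for *Sox10*, −0.28 for *Foxc1*, −0.22 for *Elf5*, −0.12 for *Pax9*, −0.061 for *Ehf* and −0.042 for *Bhlha15*, with adjusted p-values from 0.451 to 0.951. Summed markers of other cell types were higher in knockout than in wild-type males, with no overlap, for fibroblasts (521 to 582 against 628 to 1009.7 CPM), macrophages (113 to 138 against 149 to 255 CPM) and lymphocytes (3.47 to 5.05 against 6.11 to 9.17 CPM). For adipocytes the ranges overlapped (11.7 to 18.04 against 17.6 to 93.2 CPM). None of the 12, 10, 12 and 10 genes of these lists was at 0 in every library, and by edgeR 1 fibroblast marker was called higher and 0 of the other tested markers were called. Only 4 of the 12 lymphocyte markers were tested. For 6 of the 12 no wild-type male library had more than 3 counts, and for 3 of the 12 no knockout male library did. Of the 12 fibroblast markers, 11 had an unadjusted p under 0.05 by edgeR, and DESeq2 called 6 higher. Their median log2 fold changes were 0.71 and 0.74. Without the 2 libraries rich in *Muc19* edgeR called 0 of them, with a median of 0.70. Without these and the library rich in *Bpifa2* it also called 0, with a median of 0.50. The part of these other cell types in the levels of the 10 factors was not tested.

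Whether genotype acted differently in the sexes was tested by the interaction term, the female minus the male log2 fold change, which tests just as well whether the sex difference differs between genotypes. None of the 10 passed in edgeR, 0 had an unadjusted p under 0.05, and 0 passed in DESeq2, while edgeR called 25.7% of all genes, 4606 in number. Without the 2 libraries rich in *Muc19* it called 1140 genes, without these and the one rich in *Bpifa2* 3, and 0 of the 10 factors in either case. These fits also had fewer mice per group, and how far that lowered the counts was not tested. With library totals edgeR called 5 of the 10. The estimates ran from −0.21 (SE 0.23, *Bhlha15*) to 0.37 (SE 0.29, *Tfcp2l1*), with adjusted p-values from 0.352 to 0.960. For *Sox9* the estimate was 0.066 (SE 0.20) and for *Creb3l1* −0.028 (SE 0.22), the falls in females and males being −0.46 and −0.53 for the former and −0.49 and −0.46 for the latter. A call in females and none in males was therefore not shown to be a difference between the sexes for these genes.

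Genes of the kinds published as targets of the secretory factors were listed too. Whether BHLHA15 or CREB3L1 controls them in this gland was not tested. Of 7 genes listed as targets of BHLHA15 in secretory cells, all tested, 5 were lower and 0 higher in wild-type males than in wild-type females (16% of all genes were lower), with a median log2 fold change of −1.22 beside −1.04 for *Bhlha15* itself. *Gjb1*, a gap junction protein of acini, was among them (log2 fold change −1.53, adjusted p = 1.92e-06), and *Copz2*, a coat protein of transport vesicles, was another (−1.36, adjusted p = 2.56e-06). In knockouts 5 were lower, against 20.3% of all genes, and 1 higher in males. The latter was *Ccpg1*, a receptor for the turnover of the endoplasmic reticulum (0.37, adjusted p = 0.0479). Its call was lost without the 2 libraries rich in *Muc19*, although the value was then 0.40 (adjusted p = 0.0891). It was also lost in 3 of 6 fits with single libraries left out and under 3 of 5 scalings. Between genotypes in females, where *Bhlha15* was not called, 3 of the 7 were lower in knockouts, against 19.3% of all genes, and 0 higher. *Rab3d*, a GTPase of secretory granules, fell from 177 to 97.6 CPM (−0.86, adjusted p = 0.000521), and *Gjb1* from 81.9 to 47.2 CPM (−0.80, adjusted p = 0.000722). In males 0 of 7 were called between genotypes by edgeR (1 at an unadjusted p under 0.05), and 0 by DESeq2. Library totals gave 0 calls in females, and in wild-type males 2 lower and 1 higher.

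Of 14 genes listed as targets of CREB3L1 in the early secretory pathway, all tested, 12 were lower and 0 higher in knockout than in wild-type females, against 19.3% of all genes lower, with a median of −0.76 beside −0.49 for *Creb3l1*. *Sec24d*, of the coat of vesicles that leave the endoplasmic reticulum, fell from 92.3 to 50.9 CPM (−0.86, adjusted p = 0.000368), and *Arf4*, a GTPase of Golgi traffic, from 240.1 to 127 CPM (−0.92, adjusted p = 0.000402). In males, where the estimate for *Creb3l1* was −0.46, 0 of 14 were called by edgeR (1 at an unadjusted p under 0.05) or DESeq2, and the median was 0.0076. The interaction was called for 10 of the 14, against 25.7% of all genes, all with the lower value in females, whereas it was not for *Creb3l1*. Without the 2 libraries rich in *Muc19* 12 were still lower in knockout females, and the interaction was called for 6. Without these and the library rich in *Bpifa2* it was called for 0. The median interaction was about as large in each fit, at −0.76 with all libraries, then −0.77 and −0.78. In each, 11 of the 14 had an unadjusted p under 0.05 by edgeR. Library totals gave 5 lower and 2 higher in females. Between the sexes, *Creb3l1* was lower in males of both genotypes. Of its listed targets, in wild-type males 6 were lower and 1 higher, and in knockout males 8 were higher and 1 lower, where 36.5% and 43.5% of all genes were called and 16% and 20.3% called lower. The former count was 2 lower without the libraries rich in *Muc19* (median −0.27, against −0.32 with all libraries). Library totals turned it to 11 higher and 0 lower. The 2 genotype comparisons and the 2 sex comparisons share libraries with each other, so these counts are not independent of one another.

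The other factors that run the secretory pathway, a list of 12 of which 8 were tested, fell in knockout females in 5 cases, against 19.3% of all genes, and rose in 0. *Xbp1*, the factor of the unfolded protein response that secretory cells depend on, fell from 308 to 154 CPM (−1.002, adjusted p = 0.000447). *Creb3*, a relative of *Creb3l1*, fell from 16.1 to 10.3 CPM (−0.64, adjusted p = 0.000564). In males 0 of 8 were called by edgeR (2 at an unadjusted p under 0.05) or DESeq2. Library totals left 1 of the 5 falls in females. Of the list of 38 other gland epithelial factors, 35 were tested, and in females 4 were higher and 6 lower in knockouts, 10 of 35 against the 36.9% of all genes. Leaving out single libraries gave 4 to 10. The higher ones with the smallest adjusted p were *Esrrg*, an orphan nuclear receptor (0.54, adjusted p = 0.00647), and *Runx1* (0.52, adjusted p = 0.0143), and the lower ones *Tfap2b* (−0.51, adjusted p = 0.00229) and *Etv5*, an ETS factor of growth factor signalling (−0.97, adjusted p = 0.0122). In males 1 was called, *Foxi1*, the factor of ionocytes (−0.83, adjusted p = 0.0434). With single libraries left out, *Foxi1* was lost in 5 of 6 fits (adjusted p up to 0.276), *Runx1* in 4 of 6 and *Etv5* in 2 of 6. The count in males then ran from 0 to 7, the 7 without knockout replicate 1. It was 0 under 3 of 5 scalings and 4 with DESeq2. Library totals gave 17 higher and 0 lower in females. Without the 2 libraries rich in *Muc19* the count in females was 4 and in males 0, and without these and the library rich in *Bpifa2* it was 2 and 0.

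Genes of the cell types that express these factors differed by sex as well. Acinar genes, 16 of 19 matched and tested, were lower in wild-type males in 9 cases and higher in 0, where 36.5% of all genes were called and 16% called lower. Their summed level, most of it in a few saliva proteins, ran from 397992 to 625182 CPM in wild-type females and from 95237 to 155067 CPM in wild-type males. Intercalated and striated duct genes, 18 of 19 tested, were higher in 9 and lower in 3 cases in wild-type males, with a summed level of 2392 to 3228 CPM in wild-type females and 2675 to 3059.7 CPM in wild-type males. Products of the granular convoluted tubules, 19 of 19 tested, were higher in 17 and lower in 2, and summed to 5475 to 10276 CPM in wild-type females and 105228 to 197481 CPM in wild-type males. *Egf*, their best known product, rose from 506 to 47263 CPM (6.55, adjusted p = 1.4e-07). Myoepithelial genes, 7 of 8 tested, were higher in all 7. With library totals, the counts in wild-type males became 2 higher and 4 lower for acinar genes, 16 and 0 for duct genes and 17 and 0 for tubule products, and stayed 7 and 0 for myoepithelial genes. Between genotypes in females, acinar genes were lower in 6 and higher in 0 cases, against 19.3% of all genes lower (4 and 0 without the libraries rich in *Muc19*, 0 and 1 with library totals), and in males 0 were called by edgeR (6 at an unadjusted p under 0.05, against 11.5% of all genes) and 2 by DESeq2. In knockout females, duct genes were higher in 2 and lower in 5 of 18 cases, where 36.9% of all genes were called and 19.3% called lower. Tubule products were higher in 2 and lower in 0 of 19, and myoepithelial genes in 0 and 3 of 7. With library totals these counts were 10 and 0, 9 and 0, and 0 and 0. In males edgeR called 0 genes of these 3 lists. Duct genes summed to 1692 to 2027 CPM in knockout females, and basal duct genes to 253 to 272 CPM. In wild-type females these sums were 2392 to 3228 and 185 to 219 CPM. The part of these cell types in the levels of the 10 factors was not tested.

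The genes whose course over the 12 libraries was most like that of each factor were found as those with the smallest root mean square (RMS) difference of log2 CPM, each gene centred on its own mean, among 12935 genes with a mean of at least 1 CPM. For *Bhlha15* they were *Wwc2* (RMS difference 0.090 against a spread of 0.51 of *Bhlha15* itself) and *Dgkz* (0.12), for *Sox10* the RNA *4933431E20Rik* (0.098) and *Pmm2* (0.10), and for *Sox9* *Trpv6*, an epithelial calcium channel (0.11), and *Cgnl1*, a junction protein (0.11). For *Foxc1* they were *Sidt1* (0.092) and *Deaf1* (0.094), for *Creb3l1* *Tbc1d16* (0.12) and *Cth* (0.12), and for *Elf5* *Nherf2* (0.11) and *Gk5* (0.11). *Tfcp2l1* was nearest to *Slc9a2*, a sodium-proton exchanger (0.14), and *Ptprz1* (0.17), *Ehf* to *Ap1m2*, an adaptor of epithelial sorting (0.092), and *Slc25a3* (0.096), and *Pax9* to *Gpatch2l* (0.025) and *Ubr1* (0.052). *Spdef*, whose own spread was 0.94, was nearest to *Camkk1*, a calcium-dependent kinase (0.14), and then to another of the 10, *Creb3l1* (0.20). Among the 10 themselves the closest pair was *Bhlha15* and *Sox10* (0.16), and the farthest *Spdef* and *Tfcp2l1* (1.69).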

How the data were processed

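Submandibular gland RNA of 12 mice was sequenced by the study's authors in stranded, ribosomal RNA-depleted libraries, with paired reads of 100 bases, although the labels give the molecule as polyA RNA. Per the labels and the study's methods, reads were assigned with Salmon 1.10.1 to Gencode M35 transcripts on GRCm39, and the authors deposited estimated counts per gene, of which 78.6% are whole numbers. They also deposited a normalized signal, in which each estimated count is divided by a gene- and library-specific factor, its origin not given in the sources used here; it served only as an alternative scaling.

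Estimated counts were rounded and analysed with edgeR 4.0.16 (limma 3.58.1, R 4.3.3): TMM, filterByExpr, a quasi-likelihood fit with 1 mean per group over all 12 libraries, and Benjamini-Hochberg adjustment over 17893 genes within each contrast, with calls at an adjusted p under 0.05. Standard errors were taken as |log2 fold change|/√F. The study used DESeq2, here version 1.42.0 as an alternative. Total counts were 47032175 to 67882207. Over the TMM-scaled totals, 3 counts, the limit that a count of 0 allows, equal 0.0399 to 0.0782 CPM, which covers counting error only. The labels give each library as a separate mouse, and groups come from the labels. Positions and exon lengths come from Gencode M39 and upstream sequences from RefSeq. The members and the 18 gene lists were chosen with earlier results of these data known. Genes of a list are named if they are among the 2 called higher and 2 called lower with the smallest adjusted p in the contrast described, except the markers of neighbouring glands and single genes given beside a member. Alternatives were 5 scalings, 2 filters, a fit within the groups compared, DESeq2, a replicate block and each library left out; protein-coding genes alone and leaving out libraries rich in *Muc19* or *Bpifa2*, and list counts under these, library totals and DESeq2, were added after seeing the data. Calls of single Schwann cell markers are not reported here. The steps were tested on simulated counts. Figures were drawn with matplotlib 3.10.9 under Python 3.11.15, and tables made with pandas 2.3.3.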

Additional observations from a re-analysis of the deposited data

Results flagged for a closer look

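None of the 10 factors is among these results, and groups of 3 mice were not tested for outlying values. Among the genes named from the lists of other gland factors, secretory pathway factors and factor targets, 13 had a difference between knockout and wild type that differed between the sexes by the interaction term of edgeR. The values are female minus male log2 fold changes. Of the other gland epithelial factors, *Etv5* had −1.10 (adjusted p = 0.043), *Grhl2*, a factor of epithelial junctions, 0.62 (adjusted p = 0.0275) and *Foxp1* 0.53 (adjusted p = 0.0309). Of the factors of the secretory pathway, *Xbp1* had −0.72 (adjusted p = 0.0247), *Creb3* −0.50 (adjusted p = 0.0219), *Creb3l2* −0.50 (adjusted p = 0.0241), *Atf6* −0.48 (adjusted p = 0.0348) and *Atf4* −0.72 (adjusted p = 0.00636). Of the listed targets of BHLHA15, *Rab3d* had −0.61 (adjusted p = 0.0294) and *Copz2* −0.59 (adjusted p = 0.0244), and of those of CREB3L1, *Sec24d* had −0.93 (adjusted p = 0.00455), *Sec24a* −0.67 (adjusted p = 0.0139) and *Arf4* −0.99 (adjusted p = 0.0048). Without the 2 libraries rich in *Muc19*, *Sec24d* (adjusted p = 0.0285), *Arf4* (adjusted p = 0.0389), *Atf4* (adjusted p = 0.0417) and *Sec24a* (adjusted p = 0.0433) still passed and the other 9 did not, and without these and the library rich in *Bpifa2* none of the 13 did (adjusted p for these 4 of 0.0757, 0.0888, 0.0934 and 0.0951). In that last fit the values of these 4 were −1.02 (*Sec24d*), −0.91 (*Arf4*), −0.61 (*Atf4*) and −0.72 (*Sec24a*). The other 9 kept their signs, from −0.88 (*Etv5*) to 0.53 (*Grhl2*). The calls were thus lost without the differences becoming much smaller. With library totals 2 of the 13, *Grhl2* and *Foxp1*, still passed. *Copz2* (0.034), *Creb3* (0.13), *Creb3l2* (0.13) and *Atf6* (0.14) changed sign, and the other 7 were lost with adjusted p-values from 0.0657 (*Arf4*) to 0.994 (*Rab3d*). With single libraries left out, *Foxp1* was lost in 10 of 12 fits, *Grhl2* and *Etv5* in 8, *Atf6* in 4, *Creb3* and *Copz2* in 3, *Rab3d*, *Xbp1* and *Creb3l2* in 2, and *Atf4*, *Sec24d*, *Sec24a* and *Arf4* in 0.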

How the results depend on the processing

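Sex calls of the 10 factors were the most stable. In wild types 9 were called under every alternative except library totals, which gave 5 (4 of the 9, and *Pax9*), and leaving out 1 library gave 9 throughout. In knockouts the count was 9 or 10, and 9 with each library left out. In females the genotype count of 2 became 0 with upper-quartile factors and 0 with library totals, 3 with the authors' factors (*Pax9* gained), 1 with protein-coding genes only, 1 without the libraries rich in *Muc19*, 1 without these and the one rich in *Bpifa2*, and 1 to 4 with single libraries left out. In males the count of 0 became 1 without the low-count filter, 1 with DESeq2 and 0 to 1 with single libraries left out. The interaction count of 0 became 5 with library totals and stayed 0 with each library left out. Library totals moved the median of all genes by 0.50 (females), −0.12 (males), 0.62 (interaction), 0.89 (sex, wild types) and 0.27 (sex, knockouts), and upper-quartile factors by 0.10 in females and −0.16 for sex in knockouts. Over all genes, the interaction calls fell from 4606 to 1140 without the libraries rich in *Muc19* and to 3 without these and the one rich in *Bpifa2*. Those fits had fewer mice per group, and how far that lowered the counts was not tested.

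Log2 fold changes that changed sign, with the cause not tested, were mostly near 0 except with library totals, which moved the median of all genes. For genotype in females with library totals they were 0.26 (*Bhlha15*), 0.50 (*Sox10*), 0.44 (*Foxc1*), 0.051 (*Sox9*), 0.23 (*Spdef*), 0.029 (*Creb3l1*), 0.28 (*Elf5*), 0.33 (*Ehf*) and 0.35 (*Pax9*), none past the threshold. *Tfcp2l1* had −0.012 with RLE factors, −0.022 without the 20 most abundant genes and −0.016 with DESeq2. *Sox10* had 0.091 and *Foxc1* 0.034 with upper-quartile factors, *Ehf* 0.091 with the authors' factors, *Sox10* 0.026 with 10 counts in every library and 0.056 with protein-coding genes only, and *Foxc1* 0.0058 and 0.0042 without the libraries rich in *Muc19* and without these and the one rich in *Bpifa2*. With single libraries left out, the range was −0.131 to 0.042 for *Sox10* and −0.17 to 0.082 for *Tfcp2l1* in females, and −0.25 to 0.071 for *Bhlha15* and −0.13 to 0.024 for *Ehf* in males. In males *Bhlha15* had 0.0063 with the authors' factors, and *Bhlha15* 0.061 and *Ehf* 0.016 without the libraries rich in *Muc19* and *Bpifa2*. For sex, *Sox10* had 0.027 and *Foxc1* 0.33 in wild types with library totals, and *Pax9* −0.036 in knockouts with upper-quartile factors. Same-numbered mice are not said to be paired, and their deviations correlated by −0.13 to 0.27. The fit with a replicate block called 2 of the 10 in females, 0 in males, 0 for the interaction and 9 for sex in wild types and in knockouts, the same counts as without the block. Each of the 10 factors had at least 507 counts in every library.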

Other observations

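Sex differences of the other gland epithelial factors, 35 of 38 tested, went both ways. In wild types 9 were higher and 7 lower in males, where 36.5% of all genes were called, with a median log2 fold change of 0.11 beside 0.064 over all genes. In knockouts 8 were higher and 13 lower, where 43.5% of all genes were called, with a median of −0.12 beside −0.020. With library totals as the scale the split was 25 higher and 1 lower in wild types and 10 higher and 2 lower in knockouts. *Esrrg*, an orphan nuclear receptor that controls genes of mitochondrial metabolism, rose from 83.2 CPM in wild-type females to 283 CPM in wild-type males (log2 fold change 1.76, adjusted p = 7.53e-07 by edgeR) and was also higher in knockout males (1.35, adjusted p = 6.78e-06). *Irx3*, an Iroquois homeobox factor, rose from 3.33 to 9.96 CPM (1.58, adjusted p = 2.23e-05) and likewise in knockouts (1.32, adjusted p = 8.02e-05). *Tfap2b*, an AP-2 factor, fell from 30.6 to 12.2 CPM (−1.33, adjusted p = 9.96e-07) and in knockouts by nearly as much (−1.11, adjusted p = 4.68e-06). *Nfib*, a nuclear factor of epithelial and stromal cells, was lower in males at −0.65 (adjusted p = 0.000651) and −0.62 (adjusted p = 0.00077), but not with library totals as the scale, where it did not pass in either genotype and changed sign in wild types.

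Among the factors of the secretory pathway, *Atf6*, a sensor of the unfolded protein response, was higher in males than in females in wild types (60.6 to 97.2 CPM, 0.68, adjusted p = 0.000292) and knockouts (1.16, adjusted p = 4.03e-06), whereas *Xbp1* was lower in wild-type males (−1.04, adjusted p = 0.000129), a call that was lost with library totals (adjusted p = 0.396). *Creb3l4*, a relative of *Creb3l1*, stood at 7.37, 10.1 and 9.46 CPM in wild-type females, 8.51, 7.12 and 9.88 CPM in knockout females, 1.02, 1.12 and 5.12 CPM in wild-type males and 1.66, 0.648 and 0.832 CPM in knockout males, the 5.12 CPM being the wild-type male with 7391 CPM of *Muc19*.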
